A study of Mus musculus with 14 samples.

Results

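The genes described here are 10 imprinted mouse genes that act in growth, taken by name from a count table of 52550 genes: Peg10, Sgce, Meg3, Dlk1, H19, Igf2, Igf2r, Peg3, Grb10 and Mest. All 10 were found in the table, and each was followed in 14 libraries of total RNA depleted of ribosomal RNA. The libraries came from C57BL/6 mice aged 8 to 20 weeks. There were 4 libraries of WT marrow from which mature, lineage-positive cells had been depleted (hematopoietic stem and progenitor cells, HSPCs), and 4 of the same fraction from mice that lack the microRNA gene Mir139 (Mir139KO). A further 6 were cultures of WT HSPCs transformed with a retrovirus that encodes MLL-AF9, the fusion oncoprotein of an acute myeloid leukemia, with 3 cultures selected for the neomycin (neo) and 3 for the puromycin (puro) resistance of the vector. All 6 cultures carried MLL-AF9 and the WT Mir139 gene. The cultures had been expanded with cytokines, selected and replated in methylcellulose, and no untransformed culture was part of the series, so MLL-AF9 and culture cannot be told apart. The labels do not say whether cultures of a vector came from separate mice or transductions, and p-values measure the spread between these libraries.

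Imprinted genes are transcribed mainly from the chromosome copy inherited from the mother or from that inherited from the father, a choice set by DNA methylation laid down in the germ line. Many lie in clusters in which a methylated control region and a long noncoding RNA govern several genes at a distance. As a textbook generality, paternally expressed genes such as Igf2, Dlk1, Peg10, Sgce, Peg3 and Mest tend to favour growth, and maternally expressed genes such as Igf2r, H19, Meg3 and Grb10 (in most tissues) tend to limit it, and several of them have been tied to the quiescence of blood stem cells. RNA counts per gene do not tell the parental copies apart.

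Of the 10 genes, 6 were higher and 1 was lower in MLL-AF9 cells than in WT HSPCs, against 32.8% of all genes tested that were called higher and 29.4% that were called lower. Of the 8 members tested, Meg3 and Dlk1 passed the filter on counts only through the cultures in which they are high. Igf2 passed it only through the WT HSPCs, in which it is high, so the count of members is a description. Igf2r, Dlk1 and Mest were higher in all 6 cultures than in every HSPC library. Peg10 was high in the 3 neo cultures only, and Meg3 in the 3 neo cultures and in 2 of the 3 puro cultures. Igf2 was lower in all 6 cultures. The share of all genes tested whose groups did not overlap is not given here, so these separations are descriptions. None of the genes was called between Mir139KO and WT HSPCs.

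The 10 genes lie in 7 places of the genome (build GRCm38). Peg10 (ENSMUSG00000092035, chr6:4747306-4760517, plus strand) and Sgce (ENSMUSG00000004631, chr6:4674350-4747207, minus strand) are transcribed away from each other, with start sites 99 bases apart. Dlk1 (ENSMUSG00000040856, chr12:109452823-109463336) and the noncoding Meg3 (ENSMUSG00000021268, chr12:109541001-109571726) are both on the plus strand, 77664 bases apart. Igf2 (ENSMUSG00000048583, chr7:142650766-142666816) and the noncoding H19 (ENSMUSG00000000031, chr7:142575529-142578143) are on the minus strand, 72622 bases apart. The other members are Peg3 (ENSMUSG00000002265, chr7:6703892-6730431, minus strand), Grb10 (ENSMUSG00000020176, chr11:11930508-12038683, minus strand), Igf2r (ENSMUSG00000023830, chr17:12682406-12769664, minus strand) and Mest (ENSMUSG00000051855, chr6:30723547-30748465, plus strand). Exon bases of 4 members overlap another annotated gene. In Igf2 the share is 64.5%, nearly all of it with Gm49394, a gene that the count table does not list. In Mest it is 23.1%, all antisense to Copg2, in H19 9.1% and in Meg3 8.3%, and reads there cannot be assigned with certainty because the strand setting of the counting was not stated.

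Promoter windows of RefSeq (300 bases, from 250 before to 50 after a start site, build GRCm38.p6) were at hand for 7 members, with 14 windows in all. Each was searched on both strands for TGCCGC (its reverse complement is GCGGCA), the hexamer to which the imprint-keeping zinc finger protein ZFP57 binds when it is methylated, and for GCCATNTT, a core of the YY1 motif. The hexamer was in 5 of the 14 member windows, from 4 genes, and in 11.6% of all 32851 windows. The YY1 core was in 0 of the 14 and in 6.05% of all windows. The median number of CpG dinucleotides was 13 in the members' windows and 7 in all windows. The member windows overlap in part, since 2 of the 3 Mest windows start 3 bases apart. The 250 bases before the start are printed for the members whose levels in MLL-AF9 cells the results turn on, with the hexamer in capitals.
Dlk1: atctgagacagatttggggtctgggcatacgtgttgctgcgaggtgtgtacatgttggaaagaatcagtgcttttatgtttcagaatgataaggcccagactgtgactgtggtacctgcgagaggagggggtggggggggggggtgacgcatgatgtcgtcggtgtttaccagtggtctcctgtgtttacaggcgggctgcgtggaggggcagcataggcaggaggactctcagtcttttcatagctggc
Meg3: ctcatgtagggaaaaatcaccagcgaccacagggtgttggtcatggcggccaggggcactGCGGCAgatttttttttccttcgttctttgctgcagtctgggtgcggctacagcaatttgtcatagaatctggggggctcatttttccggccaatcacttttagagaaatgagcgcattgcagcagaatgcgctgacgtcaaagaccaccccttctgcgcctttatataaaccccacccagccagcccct
Mest: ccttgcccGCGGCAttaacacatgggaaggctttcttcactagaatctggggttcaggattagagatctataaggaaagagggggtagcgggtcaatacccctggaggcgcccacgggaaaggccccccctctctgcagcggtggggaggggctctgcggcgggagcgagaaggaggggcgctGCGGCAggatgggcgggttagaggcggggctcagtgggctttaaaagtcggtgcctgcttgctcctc
Igf2r: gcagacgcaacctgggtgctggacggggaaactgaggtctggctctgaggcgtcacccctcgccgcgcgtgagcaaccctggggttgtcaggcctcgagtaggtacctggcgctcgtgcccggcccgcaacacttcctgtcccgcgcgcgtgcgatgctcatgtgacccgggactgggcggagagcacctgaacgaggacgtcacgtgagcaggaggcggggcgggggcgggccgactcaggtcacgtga
The Dlk1 stretch (chr12:109452573-109452822, plus strand) holds 8 CpGs and no hexamer. The Meg3 stretch (chr12:109540746-109540995, plus strand) holds 10 CpGs and 1 hexamer, read on the opposite strand. The Mest stretch (chr6:30737800-30738049, plus strand) holds 14 CpGs and 2 hexamers. The Igf2r stretch (chr17:12769707-12769956, minus strand) is the richest of the 4 in CpG, with 27, and holds no hexamer. A match of letters is a description and not a binding site.

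Total counts were 35016668 to 45877994 per library, and 3 counts were the lowest level taken as seen. In CPM (counts scaled to library size) this was 0.0654 to 0.0857 before normalisation. On the normalised CPM used for the levels here, 3 counts were, for example, 0.127 CPM in Mir139KO HSPC replicate 1 and 0.0594 CPM in neo culture 2. A single noncoding RNA gene, Gm26917, took 16.99 to 35.44% of the counts in HSPCs and 7.55 to 10.41% in MLL-AF9 cells, with 2 libraries of each HSPC genotype under 25%. Mir139 itself had 0 counts in each of the 14 libraries, so the deletion could not be checked here. The HSPC markers summed to 3540 to 8350 CPM in WT HSPCs and 968 to 1410 CPM in MLL-AF9 cells, a sum that Mpo dominated (mean 5040 against 315 CPM), whereas Ptprc was at 46.1 against 415 CPM and Myb at 141 against 152 CPM. Stroma markers summed to 279 to 2520 CPM in WT HSPCs, 679 to 2100 CPM in Mir139KO HSPCs and 1.25 to 10.0 CPM in MLL-AF9 cells. Puro cultures 1 and 3 were far more alike (chi-square of counts per degree of freedom 9.002) than any other pair of MLL-AF9 cultures (62.5 to 413.7), but differed by more than counting noise and were kept as separate libraries.

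**Figure D1:**
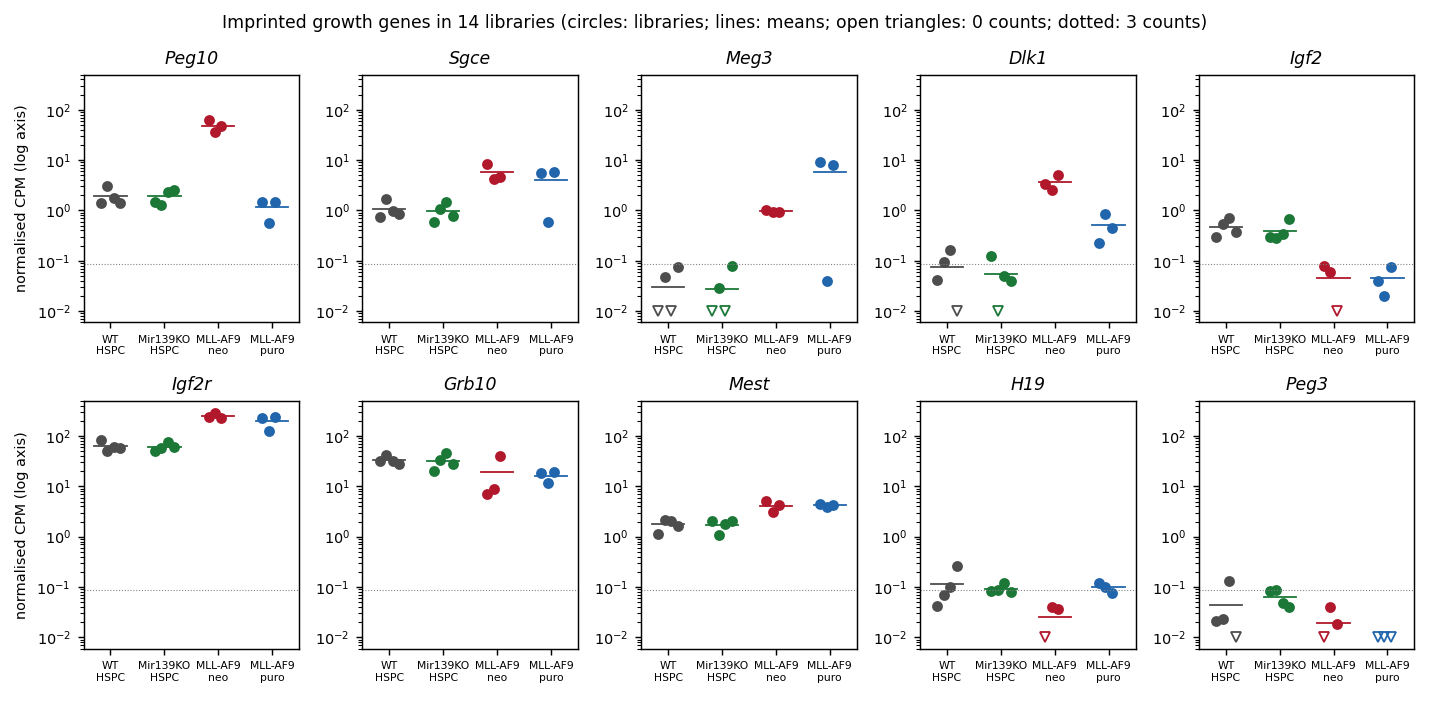
Normalised CPM (log axis) of the 10 imprinted genes in each library of the 4 groups, with a circle for a library, an open triangle at the foot for a library with 0 counts, a line for the group mean and a dotted line at 3 counts in the shallowest library. Peg10 sits between 35.7 and 62.8 CPM in the neo cultures and at or under 3.10 CPM in every other library, and puro culture 2 stands far under the other puro cultures in Meg3 and Sgce.

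Per exon base (RPKM, scaled by exon length), Igf2r was the most abundant member in every group, with a mean of 6.73 RPKM in WT HSPCs, 26.8 RPKM in neo and 21.1 RPKM in puro cultures. Grb10 came next in WT HSPCs at 3.68 RPKM, followed by Mest at 0.445 RPKM, Peg10 at 0.288 RPKM and Sgce at 0.101 RPKM. Igf2, at 0.0825 ± 0.0312 RPKM (SD, n = 4), lay within the spread of Sgce at 0.101 ± 0.0409 RPKM. In the neo cultures Peg10 stood in the second place, at 7.26 RPKM, and in the puro cultures it was the sixth, at 0.175 RPKM. In MLL-AF9 cells Meg3 and Dlk1, close to 0 in HSPCs, reached 0.0533 to 0.645 RPKM as group means.

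Igf2r encodes the cation-independent mannose 6-phosphate receptor, which carries lysosomal enzymes and takes IGF2 from the cell surface for degradation. In WT HSPCs its level, listed here and further on by replicate number, was 82.2, 49.5, 60.7 and 58.2 CPM, and in Mir139KO HSPCs it was 51.2, 56.9, 75.9 and 60.3 CPM. It was 238, 281 and 229 CPM in neo cultures 1 to 3 and 228, 128 and 234 CPM in puro cultures 1 to 3. All 6 cultures lay above all 8 HSPC libraries, and puro culture 2 was the lowest of the 6. Igf2r was higher in MLL-AF9 cells than in WT HSPCs by 1.81 on the log2 scale (SE 0.287, adjusted p = 0.0002511). Against Mir139KO HSPCs the log2 difference was 1.84 (SE 0.251, adjusted p = 4.936e-05).

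Airn, the noncoding RNA that starts inside Igf2r on the opposite strand and silences the paternal Igf2r copy in many tissues, was also higher. It was at 3.76, 3.63, 4.75 and 4.59 CPM in WT HSPCs, against 107, 119 and 141 CPM in the neo and 158, 88.3 and 148 CPM in the puro cultures. The log2 difference from WT HSPCs was 4.90 (SE 0.308, adjusted p = 5.306e-07). Only 3.17% of the exon bases of Airn lie within the span of Igf2r, so the counts of the pair come from almost separate bases. The neighbouring transporter gene Slc22a3 had 31.7, 54.9, 23.0 and 24.4 CPM in WT HSPCs, 0.427, 0.376 and 1.21 CPM in neo and 17.2, 19.5 and 16.3 CPM in puro cultures. Puro exceeded neo cultures in Slc22a3 by a log2 difference of 4.71 (SE 0.539, adjusted p = 0.02705). Of 10 neighbours of Igf2r, 9 were tested against WT HSPCs. Of these, 3 were called higher and 1 lower, beside 32.8% and 29.4% of all genes tested. Among those called higher were Airn and Mas1, which had 1 count in WT HSPCs in all against 178 in MLL-AF9 cells (85.2 times the rate, exact 95% interval 15.1 to 3390). Plg was lower, by a log2 difference of -2.35 (adjusted p = 0.03276).

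Igf2 encodes insulin-like growth factor 2, the ligand that IGF2R clears. It had 14, 23, 21 and 10 counts in WT HSPCs and 7, 10, 14 and 17 in Mir139KO HSPCs, against 4, 3 and 0 in the neo and 2, 1 and 4 in the puro cultures. The groups did not overlap, at 0.472 ± 0.178 CPM in WT HSPCs (SD, n = 4) and 0.0455 ± 0.0313 CPM in MLL-AF9 cells (SD, n = 6). Every culture lay under or near the level of 3 counts. Igf2 was lower in MLL-AF9 cells by a log2 difference of -3.32 (SE 0.593, adjusted p = 0.0005602). Against Mir139KO HSPCs too few libraries reached 10 counts for a test with all 6 cultures, but with neo cultures alone the log2 difference was -3.05 (adjusted p = 0.002232) and with puro cultures alone -3.02 (adjusted p = 0.001314). In each of these tests Igf2 passed the filter on counts only through HSPC libraries, in which it is high. The stroma markers fell with Igf2, with 9 of 11 tested called lower, against 29.4% of all genes tested. Lum was at 0 in all 6 cultures. In the other lists, 7 of 7 erythroid, 6 of 6 B cell and 5 of 7 endothelium markers tested were called lower. So were 6 of 11 HSPC and 3 of 8 neutrophil markers, and 1 HSPC marker was called higher. By replicate, stroma markers summed to 279, 471, 769 and 2520 CPM in WT HSPCs, with Igf2 at 0.294, 0.535, 0.693 and 0.367 CPM. In Mir139KO HSPCs they summed to 2100, 1000, 1360 and 679 CPM, with Igf2 at 0.296, 0.285, 0.342 and 0.670 CPM. Endothelium markers, another possible source, summed to 144 to 331 CPM in WT HSPCs, 19.6 to 42.3 CPM in neo and 78.3 to 133 CPM in puro cultures. Most of the puro sum was Pecam1, which blood cells also express, with a mean of 92.5 CPM against 90.7 CPM in WT HSPCs. Cdh5 was at 0.0396 against 1.51 CPM, Kdr at 0.227 against 2.31 CPM, Tek at 0.137 against 1.6 CPM and Emcn at 0.0260 against 0.468 CPM. The part of stroma and endothelium in the fall of Igf2 was not tested. In bulk RNA, fewer cells of a type and less RNA per cell cannot be told apart.

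H19, a noncoding RNA and microRNA host that shares its control region with Igf2, was close to the limit of detection. Its counts were 2, 3, 3 and 7 in WT HSPCs, 2, 3, 5 and 2 in Mir139KO HSPCs, 0, 2 and 2 in neo and 6, 5 and 4 in puro cultures. The counts of all groups but neo reached past 3, and H19 passed the count filter in none of the comparisons. Of 18 neighbours of H19 and Igf2, 14 were tested against WT HSPCs. Of these, 4 were called higher and 5 lower, beside 32.8% and 29.4% of all genes tested. Cdkn1c, the cyclin-dependent kinase inhibitor p57 and itself a maternally expressed gene, was at 0.256 to 0.561 CPM in WT HSPCs, 5.18, 6.45 and 6.43 CPM in neo and 1.04, 0.540 and 0.797 CPM in puro cultures. Its difference between vectors passed the test (log2 difference, puro minus neo, -2.91, SE 0.408, adjusted p = 0.03536), and its rise over WT HSPCs (2.92, adjusted p = 0.007305) did not pass with puro cultures alone or with the WT libraries of either side of 25% of Gm26917. Tnfrsf23 (log2 difference 3.87), Kcnq1 (4.12) and Tnnt3 (2.80) were the other genes called higher, of which Tnnt3 overlapped between the groups and lost its call with the WT libraries under (3.03, adjusted p = 0.06441) or over 25% of Gm26917 (2.46, adjusted p = 0.08583). Phlda2, an imprinted gene that limits placental growth, was lower by a log2 difference of -3.61 (adjusted p = 7.381e-05), from 1.12 to 2.02 CPM to 0.040 to 0.252 CPM.

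Grb10 encodes an adaptor protein that binds the insulin and IGF1 receptors and dampens their signals. Its level was 32.3, 41.3, 31.9 and 28.4 CPM in WT HSPCs and 20.0, 33.6, 45.5 and 27.8 CPM in Mir139KO HSPCs. In the neo cultures it was 6.96, 8.77 and 41.0 CPM, and in the puro cultures 18.4, 11.6 and 19.1 CPM. A single culture, neo 3, reached the HSPC range, and the other 5 lay under all 8 HSPC libraries. The log2 difference of MLL-AF9 cells from WT HSPCs was -0.95 (SE 0.433, adjusted p = 0.07325) and that from Mir139KO HSPCs was -0.88 (adjusted p = 0.09295), and neither was called by edgeR. The call depended on the test and the libraries. Against WT HSPCs Grb10 was called lower by DESeq2 (-1.01, adjusted p = 0.04486), by limma-voom (-1.19, adjusted p = 0.02655), and by edgeR without neo culture 3 (-1.38, adjusted p = 0.005278) or with puro cultures alone (-1.02, adjusted p = 0.0305). Against Mir139KO HSPCs limma-voom called it (-1.10, adjusted p = 0.04176), as did edgeR without neo culture 3 (-1.31, adjusted p = 0.00598) or with puro cultures alone (-0.95, adjusted p = 0.03181). Of the 4 neighbours of Grb10, 3 were tested and 1, Ddc, was called higher (2.66, adjusted p = 0.004833), beside 32.8% of all genes tested.

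Peg10 is a gene derived from a retrotransposon that is needed for the placenta, and Sgce encodes epsilon-sarcoglycan, a membrane glycoprotein. Peg10 was at 1.41, 3.10, 1.75 and 1.43 CPM in WT HSPCs and 1.48, 1.28, 2.35 and 2.52 CPM in Mir139KO HSPCs. The neo cultures held 62.8, 35.7 and 46.7 CPM, and the puro cultures 1.44, 0.560 and 1.5 CPM. The vectors did not overlap, and the puro cultures lay at or under the HSPC level. Between vectors 7 members were tested, and Peg10 was the 1 called, lower in puro than in neo cultures by a log2 difference of -5.36 (SE 0.524, adjusted p = 0.02059), where 0.309% of all genes tested were lower and 0.564% higher. The call was lost when any of neo 1, 2 and 3 or puro 1 and 3 was left out, while the log2 difference stayed between -5.58 and -5.00. Against WT HSPCs the difference over the 6 cultures was 3.68 (SE 1.25, adjusted p = 0.0218), with overlapping groups. With neo cultures alone it was 4.67 (adjusted p = 3.775e-05), and with puro cultures alone it was -0.70 (adjusted p = 0.2593). Leaving out WT replicate 1, 3 or 4 also ended the call over the 6 cultures (adjusted p = 0.05508, 0.05259 and 0.0576), with log2 differences of 3.54 to 3.62. Against Mir139KO HSPCs the difference over the 6 cultures was 3.66 (SE 1.24, adjusted p = 0.01845), and the call ended without Mir139KO replicate 1 or 2 (adjusted p = 0.05731 and 0.05301).

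Sgce was at 0.734, 1.70, 0.990 and 0.845 CPM in WT HSPCs and 0.592, 1.05, 1.47 and 0.789 CPM in Mir139KO HSPCs. The neo cultures held 8.26, 4.20 and 4.56 CPM and the puro cultures 5.59, 0.600 and 5.87 CPM. Puro culture 2 was within the range of the HSPC libraries, and the other 5 cultures were above all 8. Sgce was higher in MLL-AF9 cells than in WT HSPCs by 2.18 (log2, SE 0.603, adjusted p = 0.007703) and than in Mir139KO HSPCs by 2.28 (adjusted p = 0.004285). The difference between vectors was -0.47 (SE 0.808, adjusted p = 0.8398) and was not called.

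Although their start sites are 99 bases apart, Peg10 and Sgce did not keep a fixed ratio. Per exon base, the ratio of Peg10 to Sgce was 3.05, 2.90, 2.81 and 2.70 in WT HSPCs and 3.98, 1.94, 2.55 and 5.09 in Mir139KO HSPCs. It was 12.1, 13.5 and 16.3 in the neo and 0.409, 1.49 and 0.407 in the puro cultures. The neo ratios lay above all HSPC ratios and the puro ratios under all of them. The log2 ratio differed between vectors by -4.47 (exact permutation test, two-sided, p = 0.1, the smallest that 3 against 3 allow) and between Mir139KO and WT HSPCs by 0.144 (exact permutation test, two-sided, p = 0.686). These ratios were chosen after the levels had been seen.

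**Figure D2:**
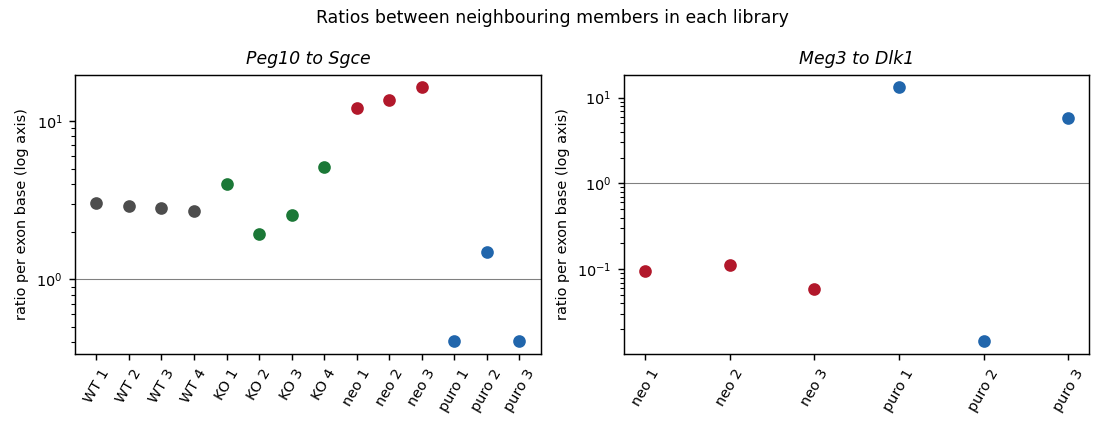
Ratio per exon base (log axis) of Peg10 to Sgce in the 14 libraries (left) and of Meg3 to Dlk1 in the 6 MLL-AF9 cultures (right), with a circle for a library and a grey line at equal levels. The Peg10 to Sgce ratio is 12.1 to 16.3 in neo and 0.407 to 1.49 in puro cultures, and the Meg3 to Dlk1 ratio is above equal levels in puro cultures 1 and 3 only.

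Of 11 neighbours of Peg10 and Sgce, 10 were tested against WT HSPCs, and 8 were called higher and 2 lower, beside 32.8% and 29.4% of all genes tested. Asb4, Pon1 and Tfpi2 passed the filter on counts only through the cultures in which they are high, so the count of neighbours is a description. Ppp1r9a, which encodes the neuronal scaffold protein neurabin, rose from 1.68 to 4.49 CPM to 72.6 to 76.0 CPM in neo and 20.3 to 50.7 CPM in puro cultures (log2 difference 4.16, SE 0.477, adjusted p = 3.032e-05). Asb4 had 8 counts in the 4 WT libraries together and 781 in the 6 cultures, 46.7 times the rate (exact 95% interval 23.6 to 109). Pon1 had 2 against 115 counts, 27.5 times the rate (interval 7.45 to 230). Pon3, a paraoxonase like Pon1, rose by 2.58 (adjusted p = 0.0002339) and Tfpi2 by 3.19 (adjusted p = 0.03641), the latter with 1.51 to 4.20 CPM in neo and 0.0190 to 0.600 CPM in puro cultures. Col1a2, a collagen gene of stroma at the edge of the region, was at 73.5 to 764 CPM in WT HSPCs and had 1 count in the 6 cultures together. Between vectors 9 of the 11 neighbours were tested and 0 were called by edgeR.

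Dlk1 encodes a membrane protein related to the Notch ligands that holds back differentiation. Its counts in HSPCs were few, with 11 in the 4 WT and 6 in the 4 Mir139KO libraries together, or 0 to 0.165 CPM. The neo cultures held 3.41, 2.59 and 4.95 CPM and the puro cultures 0.220, 0.860 and 0.437 CPM. All cultures lay above all HSPC libraries, and all neo above all puro cultures. Dlk1 was higher in MLL-AF9 cells than in WT HSPCs by 4.73 (log2, SE 1.06, adjusted p = 0.002263), and the ratio of the summed counts was 28.5 (exact 95% interval 15.8 to 57.3, counting error only). Against Mir139KO HSPCs the log2 difference was 5.27 (adjusted p = 0.001061). Between vectors the log2 difference was -2.88 (SE 0.581, adjusted p = 0.08683) and was not called by edgeR on the 6 cultures. It was called without puro culture 2 (-3.43, adjusted p = 0.02838), by DESeq2 (-2.90, adjusted p = 1.088e-05) and by edgeR with all 14 libraries in a single fit (-2.86, adjusted p = 0.03089). These fits called 990, 1326 and 761 of all genes tested, against 144 in the main fit. Without puro culture 2 the puro group was the closely alike cultures 1 and 3, which may not be independent.

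Meg3, the maternally expressed noncoding RNA of the same cluster, had 0, 2, 0 and 2 counts in WT HSPCs and 0, 1, 0 and 2 in Mir139KO HSPCs, under the level of 3 counts in every library. It had 53, 47 and 51 counts in the neo cultures (0.964 ± 0.0549 CPM, SD, n = 3), and 463, 2 and 423 counts in the puro cultures, or 9.25, 0.040 and 8.03 CPM. Puro culture 2 was thus at the level of HSPCs, and puro cultures 1 and 3 were above the 3 neo cultures. Meg3 was higher in MLL-AF9 cells than in WT HSPCs by 6.79 (log2, SE 1.56, adjusted p = 0.00265) and than in Mir139KO HSPCs by 6.92 (adjusted p = 0.001935). The rate of the summed counts was 124 times that in WT HSPCs (exact 95% interval 48.4 to 457, counting error only). It was 140 times that in Mir139KO HSPCs (interval 47.7 to 680). Puro cultures 1 and 3 held most of the summed MLL-AF9 counts, so these rates do not describe each culture. Between vectors the log2 difference was 2.62 (SE 1.37, adjusted p = 0.4841) and was not called, whereas without puro culture 2 it was 3.20 and was called (adjusted p = 0.007911). That fit leaves the closely alike puro cultures 1 and 3 as the puro group, which may not be independent. It called 990 of all genes tested, against 144 in the main fit.

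The ratio of Meg3 to Dlk1 per exon base was 0.0942, 0.112 and 0.0591 in the neo cultures and 13.2, 0.0145 and 5.75 in the puro cultures. Dlk1 was thus the more abundant RNA of the cluster in 4 cultures and Meg3 in puro cultures 1 and 3. The mean log2 ratio was higher by 3.59 in puro cultures, with puro culture 2 under all neo cultures (exact permutation test, two-sided, p = 0.4). With 3 against 3 the smallest possible p is 0.1, so the test could not show a difference. The noncoding RNAs downstream of Meg3 were, like Meg3, lowest in puro culture 2 and highest in puro cultures 1 and 3. Rian, a noncoding RNA that hosts small nucleolar RNAs, was at 0.853, 1.25 and 0.733 CPM in neo and 2.96, 0 and 3.11 CPM in puro cultures. Rian was called higher in MLL-AF9 cells than in WT HSPCs (log2 difference 5.42, SE 1.31, adjusted p = 0.003543), with 5 counts in the 4 WT libraries together. Mirg, a microRNA host chosen after its values were seen, had 5, 6 and 11 counts in neo and 28, 0 and 25 in puro cultures. Rtl1, a gene expressed from the paternal copy, was also chosen after its values were seen. It had 4, 8 and 10 counts in neo and 18, 0 and 13 in puro cultures. The strand setting of the counting was not stated, so the strand of these reads is not known. Of 8 neighbours of Dlk1 and Meg3, 5 were tested against WT HSPCs. Of these, 2 (Rian and Wdr25) were called higher and 1 lower, beside 32.8% and 29.4% of all genes tested. Between vectors 7 were tested and 0 were called by edgeR.

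**Figure D3:**
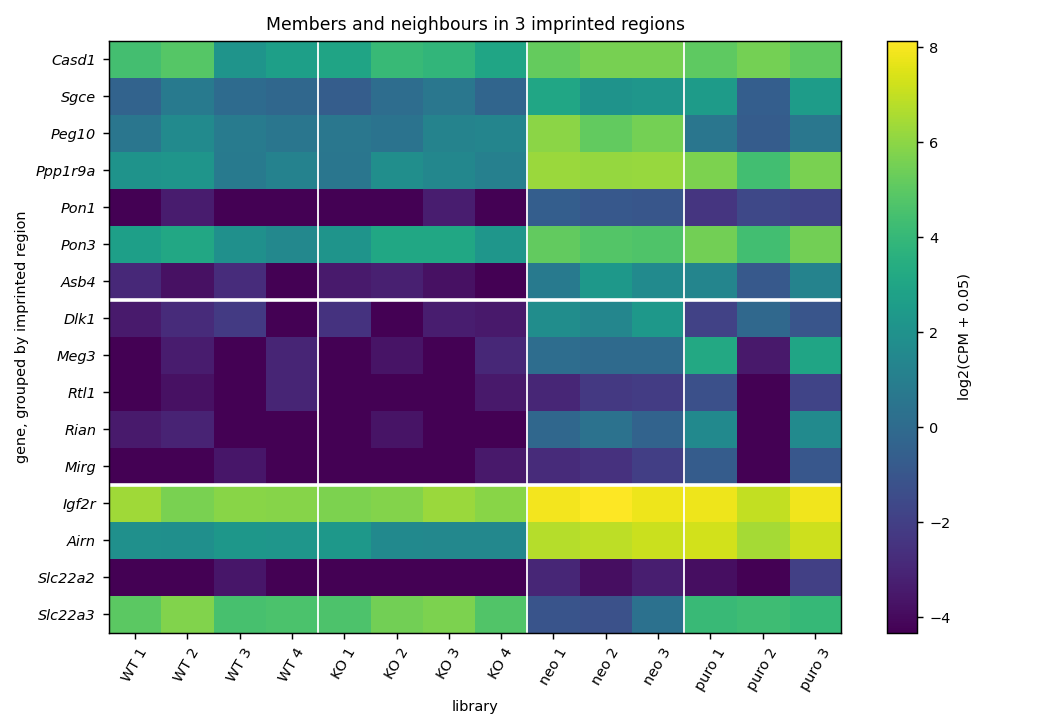
Level, as log2(CPM + 0.05), of members and neighbours in the regions of Sgce and Peg10 (top), Dlk1 and Meg3 (middle) and Igf2r (bottom), with a row for a gene, a column for a library and white lines between regions and groups. The genes shown were chosen after the values were seen. Puro culture 2 has 0 counts of Rtl1, Rian and Mirg and 2 of Meg3, Peg10 is bright in neo columns only, and Slc22a3 is dark in neo columns only.

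Mest encodes a protein of the alpha/beta hydrolase fold. Its level was 1.15, 2.17, 2.08 and 1.62 CPM in WT HSPCs and 2.03, 1.08, 1.76 and 2.09 CPM in Mir139KO HSPCs, against 5.18, 3.03 and 4.23 CPM in neo and 4.54, 3.90 and 4.35 CPM in puro cultures. All cultures lay above all HSPC libraries. Mest was higher than in WT HSPCs by 1.24 (log2, SE 0.333, adjusted p = 0.006265) and than in Mir139KO HSPCs by 1.24 (adjusted p = 0.003595), and the vectors differed by 0.04 (SE 0.337, adjusted p = 0.9746). Copg2, which overlaps Mest on the opposite strand, rose by 1.02 (adjusted p = 0.003055), from 32.1 to 55.5 CPM to 84.0 to 93.2 CPM. Of 9 neighbours of Mest, 4 were tested, and 3 were called higher, among them Mkln1 (2.69) beside Copg2, and 0 lower. Of all genes tested, 32.8% were called higher and 29.4% lower.

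Peg3, which encodes a zinc finger protein, had 1, 1, 4 and 0 counts in WT HSPCs, 2, 3, 2 and 1 in Mir139KO HSPCs, 0, 2 and 1 in neo and 0 in each puro culture. Only 1 library passed 3 counts. Peg3 was tested in none of the comparisons, and no fold is given. None of the 5 neighbours of Peg3 listed passed the filter on counts.

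Against Mir139KO HSPCs, 7 members were tested with all 6 cultures, and 6 were called higher and 0 lower, where 37.3% of all genes tested were higher and 31.9% lower. This comparison shares the 6 cultures with that against WT HSPCs, so it is no second observation of them. Igf2 did not pass the filter on counts there. Meg3 and Dlk1 passed it only through the cultures in which they are high, so this count of members is a description.

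Between Mir139KO and WT HSPCs 6 members were tested and 0 were called by edgeR, DESeq2 or limma-voom, where 0% of all 15056 genes tested were called by edgeR and 86 had an unadjusted p under 0.05. None of the 6 members had an unadjusted p under 0.05. The log2 differences were -0.02 for Peg10 (SE 0.365), -0.13 for Sgce (SE 0.384) and -0.26 for Igf2 (SE 0.416). They were -0.04 for Igf2r (SE 0.232), -0.09 for Grb10 (SE 0.287) and -0.02 for Mest (SE 0.323), with an adjusted p of 0.9999 for each. The levels of all 6 overlapped between the genotypes. Meg3, Dlk1, H19 and Peg3 had too few counts in HSPCs for a test.

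**Figure D4:**
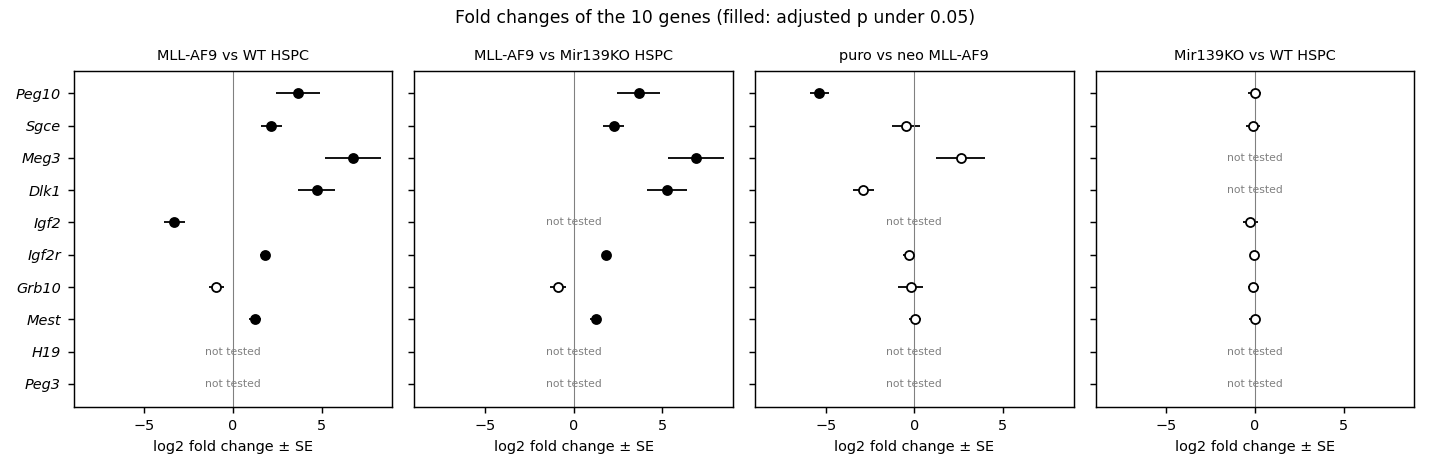
Log2 fold change with its SE (bars) of the 10 imprinted genes in the 4 comparisons, with filled circles for an adjusted p under 0.05 and open circles otherwise. MLL-AF9 cells differ from both HSPC genotypes in Peg10, Sgce, Meg3, Dlk1, Igf2r and Mest, Peg10 is the gene called between vectors, and all points between Mir139KO and WT HSPCs lie between -0.26 and -0.02.

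Of 60 other imprinted genes, some of which are neighbours named above, 33 were tested against WT HSPCs, and 19 were called higher and 7 lower, beside 32.8% and 29.4% of all genes tested. Some, such as Asb4 and Rian, passed the filter on counts only through the cultures in which they are high, so these counts are descriptions. Between vectors 31 were tested, and Slc22a3 was called higher and Cdkn1c lower in puro cultures. Rasgrf1, an exchange factor for RAS, fell from 0.495 to 4.85 CPM in WT HSPCs to 0 to 0.155 CPM in MLL-AF9 cells (log2 difference -4.94, adjusted p = 0.0002259). Dcn, the stroma proteoglycan decorin, was also lower (-7.31, adjusted p = 1.777e-05), and it stands among the stroma markers too.

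Of 23 genes of the IGF pathway (ligands, receptors, binding proteins, RNA-binding proteins of Igf2 mRNA and signalling kinases), 19 were tested against WT HSPCs, and 8 were called higher and 5 lower. These counts lie near the 32.8% higher and 29.4% lower of all genes tested and are no result about the pathway. Igf2bp3, an RNA-binding protein of the fetal program that binds Igf2 mRNA, was at 0.330 to 2.86 CPM in WT HSPCs and 220 to 283 CPM in MLL-AF9 cells (log2 difference 7.17, SE 0.619, adjusted p = 4.574e-06). Igf2bp1 had 2 counts in the 4 WT libraries together and 456 in the 6 cultures, 109 times the rate (exact 95% interval 30.1 to 904), with 0.060 CPM in puro culture 2 and 0.407 to 3.52 CPM in the other 5. Igf1, a ligand, rose by 2.08 (adjusted p = 0.001872) and the binding protein gene Igfbp6 by 2.64 (adjusted p = 0.007781). The call of Igf1 was lost with a GC content offset (0.93, adjusted p = 0.1895) and that of Igfbp6 with the WT libraries under 25% of Gm26917 (2.49, adjusted p = 0.07788). Igfbp5 fell from 6.63 to 18 CPM in WT HSPCs to 0 to 0.120 CPM. Igfbp3 had 144 counts in WT HSPCs and 0 in the 6 cultures, at least 100-fold lower against a floor of 3 counts over the 6 libraries. Stroma markers, like markers of other lists, were also lower in MLL-AF9 cells, and their part in the fall of both genes was not tested.

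Of 17 genes that set or keep imprints, 16 were tested against WT HSPCs, and 7 were called higher and 5 lower, near the 32.8% and 29.4% of all genes tested. Zfp57, the zinc finger protein that binds the methylated hexamer described above, was at 0.168 to 0.373 CPM in WT HSPCs and 1.14 to 4.04 CPM in MLL-AF9 cells (log2 difference 2.98, SE 0.520, adjusted p = 0.000486). Zfp445, which acts beside it, rose by 2.84 (adjusted p = 5.429e-05). Trim28, the corepressor that both recruit, fell from 411 to 1180 CPM to 67.2 to 176 CPM (log2 difference -2.86, SE 0.410, adjusted p = 0.0001343). Dnmt3l, a cofactor of DNA methylation in the germ line, rose by 4.30 (adjusted p = 1.108e-05), Ctcfl by 3.42 (adjusted p = 0.002097) and Arid4b by 3.07 (adjusted p = 2.02e-05). Between vectors, 0 of 16 genes of imprint keeping and 0 of 17 of the IGF pathway were called by edgeR, where 2259 of all genes tested had an unadjusted p under 0.05.

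The 3 members with the widest spread over the 14 libraries were Meg3 (SD of log2 CPM 2.72), Dlk1 (2.26) and Peg10 (2.14). Among 10966 genes, the profile most like that of Meg3 was that of Cd38 (root mean square difference of centred log2 CPM 0.899), followed by Myo6 (1.10) and Cd274 (1.14). For Dlk1 the nearest were Dagla (0.724), Nid2 (0.850) and Amotl1 (0.890), and for Peg10 they were Vipr2 (1.04), Alcam (1.11) and Il1rl2 (1.13). These are descriptions over the same 14 libraries, and none of the 9 genes lies in the cluster of the member it resembles.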

How the data were processed

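Total RNA depleted of ribosomal RNA was sequenced from 14 samples. The authors mapped the reads to GRCm38 with STAR 2.5.3e and deposited raw counts per gene from featureCounts 1.6.0 on GENCODE M15, and the strand setting was not stated. The deposited count tables held the same value in all 735700 shared cells, and 10 columns of another series were not used. Counts were analysed with edgeR 4.0.16 (TMM, robust quasi-likelihood F test) and limma 3.58.1 in R 4.3.3, with only the groups compared. A gene was tested with 10 or more counts in at least n libraries, n being the size of the smaller group, and a Benjamini-Hochberg adjusted p under 0.05 over all genes tested was called. In the gene lists too, genes with few counts in a group could pass this filter only through the group in which they are high. The counts called per list are therefore descriptions. SE was taken as the size of the log2 fold change over the root of F. CPM were scaled by TMM over all 14 libraries, and RPKM, exon lengths and positions used GENCODE M21, which placed 52403 of 52550 genes. RPKM are used for levels only. Intervals are exact (95%) and, like the limit of 3 counts, cover counting error only.

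The members and gene lists were chosen with earlier results of these data known. Named were all members and, of each list (2 of its names were not in the table), called genes with a log2 change of 1 or more in size, at most the 6 largest per list and comparison, with the genes that share a promoter or transcript with a member. A few genes named by it are not reported here. The marker lists were stroma, endothelium, HSPC, erythroid (summed CPM 702 to 1580 in WT HSPCs and 1.96 to 4.03 in MLL-AF9 cells), B cell (34.3 to 66.8 and 1.58 to 6.34) and neutrophil (2140 to 10100 and 2700 to 4220). Alternatives included DESeq2 1.42.0, limma-voom, other scalings, filters and thresholds, a GC content offset, each vector alone, and each replicate left out. Puro cultures 1 and 3 alone, and the ratios between members, were added after the data were seen. On simulated counts, edgeR called 200 of 200 genes changed by 2 on the log2 scale in each of the 4 comparisons. With a simulated GC bias between MLL-AF9 cells and WT HSPCs, it called 5545 unchanged genes without and 25 with the GC offset, which the main analysis does not have. In these simulations the changed genes were well counted, and the same spread was set for all genes. They give no measure of the power for members with few counts or for widely varying cultures.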

Additional observations from a re-analysis of the deposited data

Results flagged for a closer look

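In 4 of 30 groups of libraries checked, a library stood far from the others of its group, where chance gives about 1 in 20 groups. Grb10 was at 41.0 CPM in neo culture 3, above the other 5 MLL-AF9 cultures. Igf2r was at 128 CPM in puro culture 2, under the other 5 cultures. Igf2 was at 0.670 CPM in Mir139KO HSPC replicate 4 and H19 at 0.122 CPM in Mir139KO HSPC replicate 3, where they had 17 and 5 counts. The change of Peg10 from WT HSPCs differed between the vectors, by -5.36 on the log2 scale (puro minus neo), as tested in the comparison of the vectors.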

How the results depend on the processing

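The number of members called was 5 to 8 against WT HSPCs and 4 to 7 against Mir139KO HSPCs in 27 alternatives each, and 0 between the HSPC genotypes in 19. Between vectors the count of 1 became 2 (Peg10 and Dlk1) with DESeq2 and with all 14 samples in a single fit, and 0 at an adjusted p under 0.01 and with puro replicates 1 and 3 summed. With a replicate left out it ranged from 0 to 3, with 3 (Peg10, Meg3 and Dlk1) without puro replicate 2. That fit rests on the closely alike puro replicates 1 and 3 and called 990 of all genes, against 144 in the main fit. With puro replicates 1 and 3 summed, 5 of all genes were called. The sign of Peg10 turned with puro cultures only (-0.70 against WT, -0.70 against Mir139KO HSPCs) and with puro cultures 1 and 3 only (-0.38 and -0.41). Peg10 lost its call against WT HSPCs in 10 of 27 alternatives, among them limma-voom (1.93, adjusted p = 0.2663). Igf2r, Igf2 and Meg3 stayed called against WT HSPCs in every alternative that gave a value. Of these, Igf2 and Meg3 passed the main filter on counts only through the group in which they are high. The call of Sgce was lost with WT libraries under 25% of Gm26917 (1.96, adjusted p = 0.09889) and with the GC offset (1.37, adjusted p = 0.1131), likewise against Mir139KO HSPCs (1.89 and 0.52), and that of Dlk1 with puro cultures 1 and 3 only (2.10, adjusted p = 0.05292). With total counts only, the median of all genes moved from 0.14 to 0.69 against WT HSPCs and from 0.16 to 0.84 against Mir139KO HSPCs, and with the GC offset to 0.63 and 0.95, without turning the sign of a tested member. With the GC offset 7697 of all genes were called against WT HSPCs in place of 10630, Igf2 moved to -1.99, Igf2r to 2.99, Mest to 1.88 and Mrpl23 to -0.28 (not called), and against Mir139KO HSPCs Peg10 (3.53, adjusted p = 0.07914) lost its call and Grb10 moved to -0.03. The labels do not say that the replicate numbers pair the samples. Same-number correlations were mixed, at -0.58 to 0.64 between HSPC genotypes and -0.31 to 0.45 between vectors. The same-number library was the best partner for Mir139KO replicate 2 and puro replicates 1 and 2, and not for the others. With a replicate block 1 member was called between vectors, Mest against WT HSPCs lost its call (1.28, adjusted p = 0.05302) and Grb10 against Mir139KO HSPCs gained one (-1.08, adjusted p = 0.02228). By CPM in place of RPKM, 6 of 10 members kept their place in the order of levels in MLL-AF9 cells. With a mean log2 CPM of 3 or more required, 3 of the 9 nearest profiles remained. With the WT libraries under 25% of Gm26917, Rian and Ddc lost their calls. Among the neighbours and lists, Plg kept its call in 18 of 27 and Tfpi2 in 14 of 25 alternatives, and Cdkn1c and Slc22a3 between vectors in 10 of 17 each. H19 and Peg3, and Igf2 in MLL-AF9 cells, were limited by depth.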
